A study of Mus musculus with 12 samples.

Results

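The alpha and beta tubulin genes followed here were Tuba1a, Tuba1b, Tuba1c, Tuba4a, Tubb2a, Tubb2b, Tubb3, Tubb4b, Tubb5 and Tubb6. They were taken by symbol, and the choice was made with earlier results of these data known. They are 10 of the 35509 genes in the count table, which holds 6 further alpha and beta tubulin genes. RNA was measured in clones of cells in the distal region of the Fallopian tube (oviduct) of wild-type mice aged 4 weeks. All mice carried the MADM RG;GR alleles on a mixed background and had no treatment. MADM, mosaic analysis with double markers, uses recombination between chromosomes to give a dividing cell's progeny a heritable fluorescent colour, which makes clones visible. Large clones and small clones were each represented by 1 library per mouse, from 6 mice, which makes 6 libraries per clone size. Each library pooled 200 cells cut out by laser, and a value is therefore a mean over several cells of a type or of different types. How large a large clone was, and the promoter that drove recombination, were not used here. In such bulk samples fewer cells of a type and less RNA per cell cannot be told apart.

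Microtubules are built from dimers of 1 alpha and 1 beta tubulin. Mammals have several genes for each, called isotypes, whose proteins are alike along most of their length and differ most in the tail at the carboxyl end. That tail faces outward on the microtubule and is where most enzymes add chains of glutamate or glycine. Tubb4b is the main beta tubulin of the ciliary axoneme, the microtubule core of motile cilia, and the oviduct epithelium holds multiciliated cells beside secretory cells. Tubb3 is best known from neurons. When free tubulin dimers are in excess, cells degrade tubulin mRNAs while they are translated, and Ttc5 recognises the first residues of the new protein.

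Sequences are shown where they bear on how reads can be told apart between isotypes and on the signal that Ttc5 reads. They are coding sequences of the GENCODE M21 transcripts of GRCm38, matched by gene identifier and printed 5′ to 3′. The first 30 coding bases are given with codons 1 to 4 in capitals, the stretch that encodes the recognised residues. The alpha genes used 2 different strings for these 12 bases and the beta genes used 5, when all 10 genes were compared.
Tuba1a: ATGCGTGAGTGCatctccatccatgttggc
Tuba1b: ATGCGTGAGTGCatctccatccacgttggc
Tubb4b: ATGAGGGAGATCgtgcacctgcaggctggg
Tubb5: ATGAGGGAAATCgtgcacatccaggccgga
Tubb3: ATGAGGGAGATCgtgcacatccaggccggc

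The last 60 coding bases, which encode the tail, are given with the stop codon in capitals. Tubb4b and Tubb5 differed at 24 of these 60 bases, counted position by position back from the stop codon, so reads from the tail can tell them apart. Tuba1c is shown as an alpha tail.
Tuba1c: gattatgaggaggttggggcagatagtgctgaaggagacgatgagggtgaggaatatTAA
Tubb4b: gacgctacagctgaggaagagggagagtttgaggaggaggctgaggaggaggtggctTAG
Tubb5: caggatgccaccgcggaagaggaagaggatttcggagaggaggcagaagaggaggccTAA
Tubb3: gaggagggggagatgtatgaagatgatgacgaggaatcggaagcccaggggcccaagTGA

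Across whole coding sequences, Tuba1a and Tuba1b were 98.3% identical, Tuba1b and Tuba1c 97.9%, and Tubb2a and Tubb2b 96.5%. Over all 15 pairs of beta genes, this one included, the median was 83.5% and the lowest value 80.3%. An alpha and a beta gene shared between 56.0% and 58.5% of aligned bases. Of all 50-base windows of their transcripts, Tuba1b shared 83.1% with at least 1 other gene, Tuba1a 75.5%, Tuba1c 61.0% and Tubb4b 55.5%. For the 3 Tuba1 genes most shared windows were shared with one another, while Tubb4b shared none with the other 9 genes and its windows recurred in its pseudogenes Tubb4b-ps1 and Tubb4b-ps2. Tuba4a shared 48.8% of its windows, all outside the other 9 genes, and the gene with which it shared most was Stk16, a protein kinase gene. Tubb3 and Tubb6 shared none, and Tubb5 shared 0.115%. The deposited values are expected counts, in which a read that maps to several genes is divided among them by their estimated abundance. Counts of Tuba1a, Tuba1b, Tuba1c and Tubb5 were fractional in all 12 libraries, those of Tubb4b in 11, of Tubb2b in 3, of Tubb2a in 2 and of Tubb6 in 0. For Tubb5, which shared almost no windows, fractional counts therefore did not follow the share of windows. Tubb2a and Tubb2b shared many windows but were at 0 in 7 and 4 libraries, where a count cannot be fractional. Because of the shared windows, the split within the Tuba1 group and between Tubb2a and Tubb2b is uncertain. So is the split between Tuba4a, with 194 counts over all libraries, and Stk16, with 7261. Tuba1a also shared windows with the processed pseudogene Gm17383, which reached 58.1 CPM but was at 0 in 10 libraries.

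**Figure D1:**
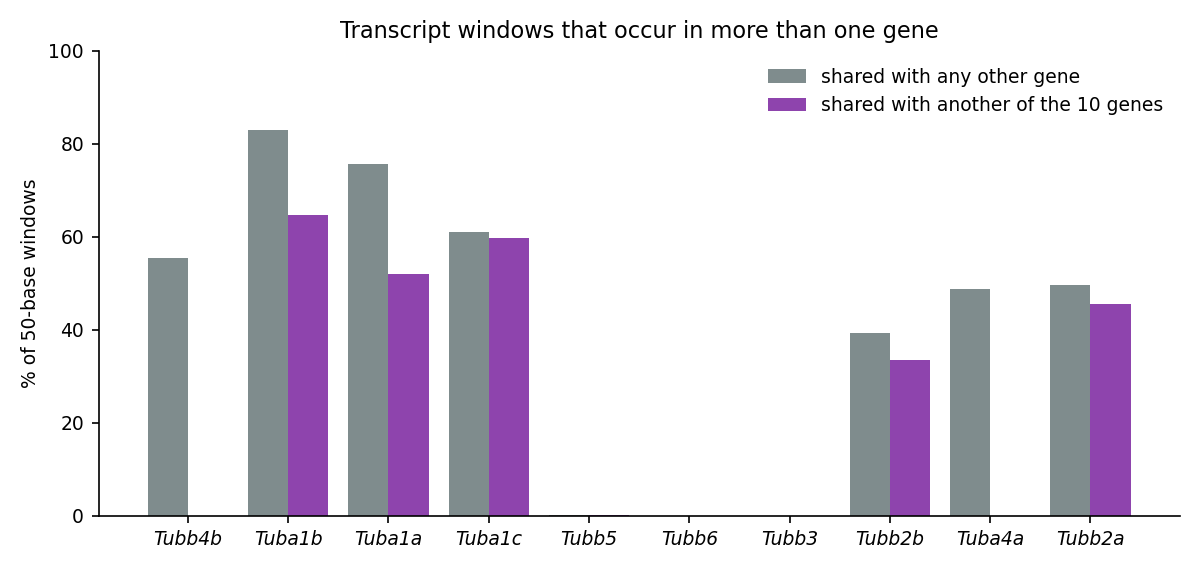
Share of all 50-base transcript windows (vertical axis, %) that also occur in any other gene (grey) or in another of the 10 tubulin genes (purple). Tuba1b reached 83.1% and Tuba1a 75.5%, Tubb4b shared windows only outside the 10 genes, and Tubb3 and Tubb6 shared none.

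The libraries fell into sets before any tubulin was considered. Genes described as olfactory, vomeronasal, trace amine or taste receptors, 2063 in number, took 0.843% to 4.17% of counts in 7 libraries and 7.87% to 11.03% in the other 5. The first set held the large clones of mice 3, 4 and 5 and the small clones of mice 1, 2, 4 and 5, and the second set the large clones of mice 1, 2 and 6 and the small clones of mice 3 and 6. Below they are called the 7 libraries with the lower receptor share and the 5 with the higher one, which is a split made from the data and not a group of the study. Processed pseudogenes took 2.97% to 7.22% of counts in the 7 and 10.7% to 15.5% in the 5. Summed epithelial markers (Epcam, Krt7, Krt8, Krt18, Krt19, Cdh1, Cldn3 and Cldn4) ranged from 4172 to 8552 CPM in the 7 and from 263 to 1307 CPM in the 5. CPM is counts scaled to a common library size by TMM, in the usual unit for sequencing depth. All 8 epithelial markers were detected, although Cldn4 was at 0 in 10 libraries. The libraries held 3057979 to 4227129 expected counts, and a count of 0 allows up to 3 counts, or 0.565 to 1.29 CPM depending on the library. This limit reflects counting error alone, because the amplified reads carry no molecular identifiers and several can stem from 1 molecule.

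Tubb4b had the highest level per kilobase of transcript of the 10 genes, at 723 ± 696 CPM per kilobase (SD, n = 12 libraries), and ranked 116 among 35491 genes with a transcript length. Tuba1b followed at 207 ± 176 and Tuba1a at 126 ± 105 CPM per kilobase. Tuba1c, Tubb5 and Tubb6 came next at 26.6, 23.7 and 16.0 CPM per kilobase, then Tubb3 at 6.16, Tubb2b at 1.99, Tuba4a at 1.66 and Tubb2a at 0.962. Tubb4b exceeded Tuba1b in 11 of 12 libraries, and Tuba1a exceeded Tuba1c in 10 of 12. Tuba1b exceeded Tuba1a in 8 of 12, Tuba1c exceeded Tubb5 in 7 of 12 and Tubb6 exceeded Tubb3 in 6 of 12, so over all libraries these neighbours did not differ beyond their spread. The order differed between the sets of libraries. Tubb6 was above Tubb3 in 6 of the 7 with the lower receptor share and in 0 of the other 5, and Tuba1b was above Tuba1a in 6 of 7 and in 2 of 5. The place of Tubb6 rested on 1 library, described below.

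**Figure D2:**
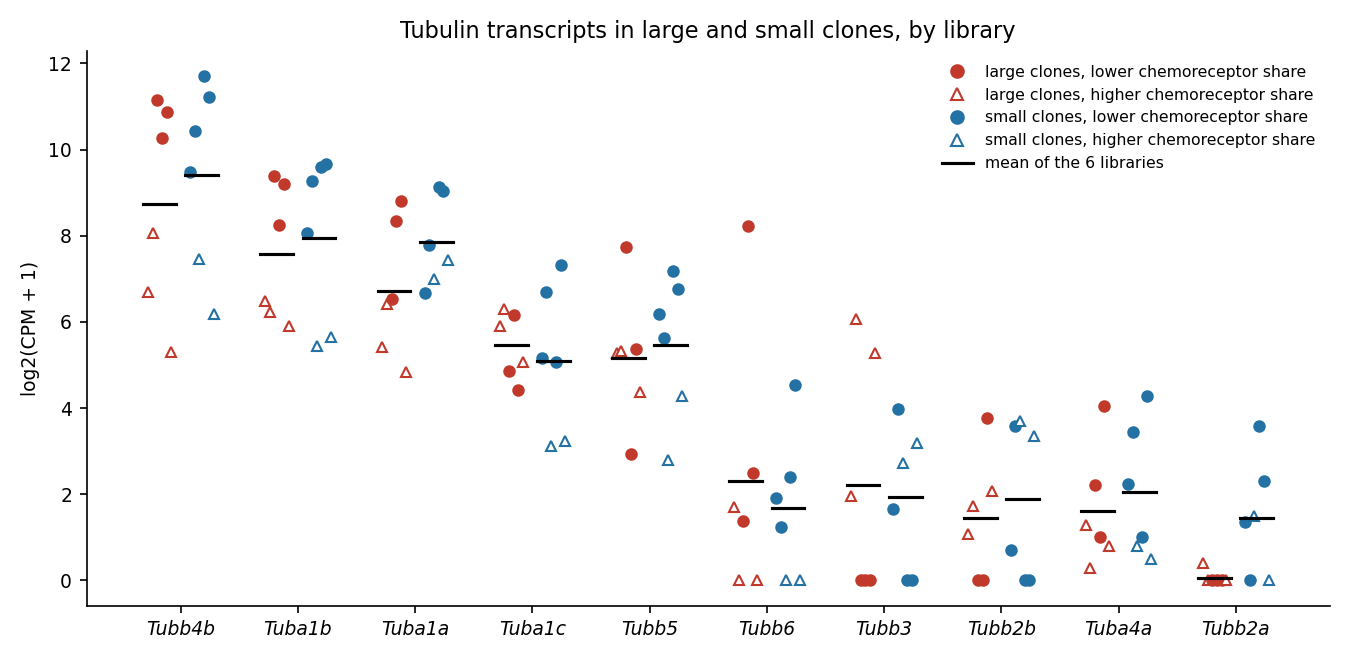
Level of each tubulin gene in each of the 12 libraries (vertical axis, log2(CPM + 1)), large clones in red and small clones in blue, with triangles for the 5 libraries with the higher receptor share and a bar for the mean of 6 libraries. Large and small clones overlap for every gene, and Tubb4b, Tuba1b and Tuba1a lie above the others in most libraries.

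Among the alpha genes, Tuba1b and Tuba1a supplied most of the transcripts. Tuba1b (chromosome 15, 98829306 to 98832446) is a ubiquitous alpha tubulin. Its level ranged from 58.6 to 666 CPM in large clones with a median of 195, and from 42.3 to 807 CPM in small clones with a median of 441. The low libraries of both clone sizes were the 5 with the higher receptor share, where Tuba1b lay between 42.3 and 89.3 CPM, against 266 to 807 CPM in the other 7. Tuba1a (chromosome 15, 98847718 to 98851584) is abundant in the developing nervous system and is also made in other tissues. It ranged from 27.8 to 448 CPM in large clones, with a median of 87.9, and from 101 to 558 CPM in small clones, with a median of 197. Tuba1a was lower in the large-clone library in 6 of 6 mice, as were 1.08% of all genes tested, although the ranges of the clone sizes overlapped. This count rests on the uncertain split of reads within the Tuba1 group. The summed alpha genes were higher in large clones in mouse 3, at 789 against 177 CPM, and lower in every other mouse.

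Tuba1c (chromosome 15, 98927772 to 98935991), the third of the near-identical alpha genes, ranged from 20.4 to 78.3 CPM in large clones and from 7.75 to 158 CPM in small clones. The medians were 45.7 and 33.8 CPM, and the lowest values came from the small clones of mice 3 and 6. Unlike Tuba1b, its level did not separate the sets of libraries, with 20.4 to 158 CPM in the 7 and 7.75 to 78.3 CPM in the 5. Tuba4a (chromosome 1, 75190872 to 75196509), whose coding sequence does not encode the terminal tyrosine found in other alpha tubulins, was low, at 0.229 to 15.5 CPM in large clones and 0.406 to 18.4 CPM in small clones. Both libraries of mouse 5 gave its highest values, 15.5 and 18.4 CPM. The windows that Tuba4a shares with Stk16 leave these values uncertain.

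Tubb4b (chromosome 2, 25112172 to 25114714) dominated the beta genes. In large clones it ranged from 38.6 to 2271 CPM with a median of 754, and in small clones from 71.4 to 3341 CPM with a median of 1043. In the 7 libraries with the lower receptor share Tubb4b lay between 718 and 3341 CPM, and in the other 5 between 38.6 and 268 CPM. Of the 10 genes, 7 of them tested, only Tuba1b and Tubb4b had every one of the 7 libraries above every one of the 5. Both are among the tested genes, of which 10.1% of all 10848 showed the same. This separation followed the split of the libraries and was found in 1093 genes, these 2 included. Tubb5 (chromosome 17, 36144813 to 36149198), a broadly made beta tubulin, ranged from 6.67 to 212 CPM in large clones with a median of 38.5. In small clones it ranged from 5.96 to 144 CPM with a median of 60.2, and large and small clones overlapped throughout.

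Tubb3 (chromosome 8, 124138163 to 124148754) was at 0 in 5 of 12 libraries and reached 66.5 CPM in the large clones of mouse 2 and 38.1 CPM in those of mouse 6. The large clones of mouse 2 held 46.9% of its counts. Its values in large clones were 2.86, 66.5, 0, 0, 0 and 38.1 CPM for mice 1 to 6. In small clones they were 2.17, 14.9, 5.57, 0, 0 and 8.12 CPM. It was detected in all 5 libraries with the higher receptor share and in 2 of the other 7. Of the 13 neuron and glia markers all were detected in at least 1 library, and their summed level ranged from 351 to 924 CPM in large clones and from 283 to 831 CPM in small clones. S100b, which is also made outside the nervous system, was detected in all 12 libraries, and the neurofilament genes Nefl and Nefm were each at 0 in 10 libraries. The summed level was highest in the large clones of mouse 4, at 924 CPM, where Tubb3 was at 0. The part of such cells in the level of Tubb3 was not tested.

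Tubb6 (chromosome 18, 67523787 to 67535819), a beta tubulin made at a low level in many tissues, was held almost entirely by 1 library. The large clones of mouse 4 gave 299 CPM, which is 83.5% of all its counts. The other large-clone libraries lay between 0 and 4.66 CPM, and the small clones between 0 and 22.3 CPM. The same library had the highest fibroblast marker sum, of which Dcn at 272 CPM and Col3a1 at 208 CPM made up most, while Col1a1, Col1a2, Lum and Pdgfra were highest in other libraries. That sum ranged from 15.3 to 505 CPM in large clones and from 36.2 to 164 CPM in small clones. It also had the highest level of Kdr, an endothelial receptor gene, at 220 CPM, while the other 5 endothelial markers were highest elsewhere. Its red blood cell marker sum was the highest too, and that sum ranged from 195 to 5746 CPM in large clones and from 32.2 to 2083 CPM in small clones. All 6 fibroblast markers were detected in at least 1 library, and the part of fibroblasts or vessels in the level of Tubb6 was not tested.

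Tubb2a and Tubb2b (both on chromosome 13, at 34258257 to 34261990 and 34310731 to 34314449) are a near-identical pair known best from brain. Tubb2a was at 0 in 5 of 6 large-clone libraries, with 0.315 CPM in mouse 1, and ranged from 0 to 10.9 CPM in small clones. Tubb2b ranged from 0 to 12.6 CPM in large clones and from 0 to 11.96 CPM in small clones, and was at 0 in 4 of 12 libraries. Tuba4a, Tubb2a and Tubb2b did not pass the filter on low counts, so 7 of the 10 genes were tested. Of the 6 other alpha and beta tubulin genes in the table, 4 were detected and none was tested. Tubb4a, a beta gene of neurons and oligodendrocytes, had 44.01 counts, all in the library from the large clones of mouse 4, and Tuba3b and Tuba8 had 0 counts in every library.

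Isotype make-up was read as each gene's share of the summed counts of its class within a library, a measure that does not depend on how much tubulin RNA the library held in all. Tubb4b made up 81.5% ± 17.3 (SD, n = 12) of beta tubulin counts. Its share was 74.8% ± 20.7 in large clones and 88.2% ± 10.99 in small clones (n = 6 each), and these spreads overlap. In the 7 libraries with the lower receptor share it was 91.9% ± 5.70, from 80.2% to 97.0%. In the other 5 it was 66.8% ± 17.6, from 38.7% to 87.3%. Tubb5 made up 8.996% ± 7.98 of beta counts over all libraries and Tubb3 5.79% ± 11.4, with 38.2% in the large clones of mouse 6. Without mouse 6 the mean share of Tubb3 was 2.37%. Tubb6 reached 19.4% of beta counts in the large clones of mouse 4.

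Among alpha tubulin counts, Tuba1b made up 49.6% ± 18.2 (SD, n = 12), Tuba1a 37.6% ± 19.4 and Tuba1c 12.2% ± 11.4. The mean share of Tuba1a was 30.1% ± 13.4 in large clones and 45.0% ± 22.7 in small clones, within the spread of both. The highest Tuba1a shares, 71.3% and 74.8%, came from the small clones of mice 3 and 6, both among the 5 libraries with the higher receptor share. Tuba1c made up 17.7% ± 14.2 of alpha counts in large clones and 6.71% ± 3.67 in small clones. Its share was 19.8% ± 14.5 in the 5 libraries with the higher receptor share and 6.82% ± 4.01 in the other 7. Within those 5 it was 30.7%, 33.0% and 27.2% for large clones (mice 1, 2 and 6), against 4.39% and 3.67% for small clones (mice 3 and 6). The high shares of Tuba1c thus came from 3 large-clone libraries. The ratio of beta to alpha tubulin, per kilobase of transcript, was 1.77 ± 0.86 over all 12 libraries, 1.85 ± 0.98 in large clones and 1.69 ± 0.80 in small clones, so clone sizes did not differ beyond their spread. It was 2.32 ± 0.59 in the 7 libraries and 0.999 ± 0.475 in the other 5.

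**Figure D3:**
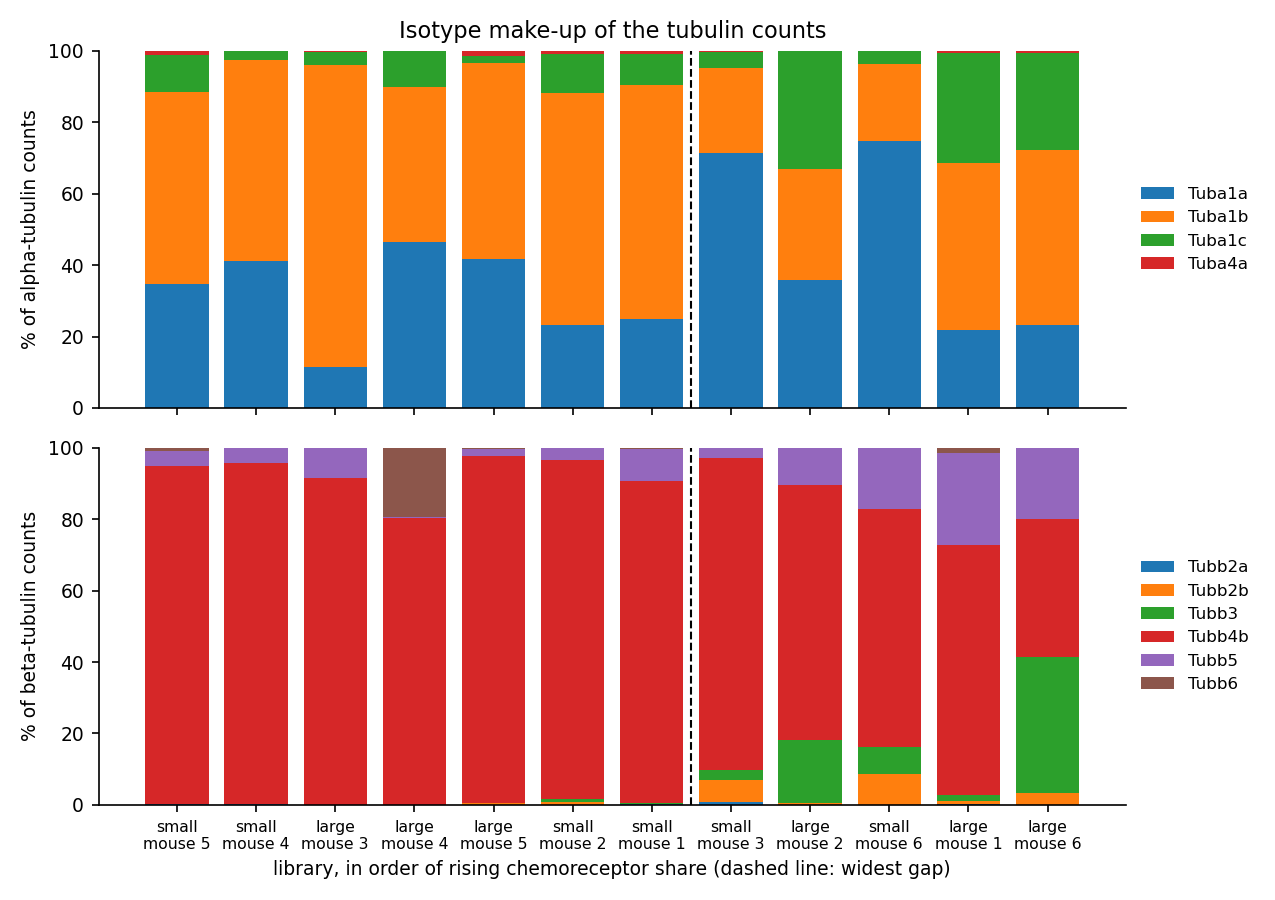
Share of each isotype (vertical axis, % of class counts) within alpha and within beta tubulin, 1 bar per library in order of receptor share, with a dashed line between the 7 lower and the 5 higher libraries. Tubb4b makes up at least 80.2% of beta counts in the 7 libraries with the lower receptor share and as little as 38.7% in the others, where the mean shares of Tubb3 and Tubb5 are larger.

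The design asks whether cells of large and of small clones differ in expression. No tubulin gene passed the test. In edgeR's quasi-likelihood test across 10848 genes, 0 genes had an adjusted p under 0.05, which is 0% of those tested, and 275 had an unadjusted p under 0.05, which is 2.54%. None of the 7 tested tubulin genes was among either count. DESeq2 gave 5 genes at an adjusted p under 0.05, or 0.0461%, and with mouse as a block 42, or 0.387%, none of them a tubulin gene. The clone sizes did not overlap for 0.0645% of genes tested, and they overlapped for all 10 tubulin genes. The biological coefficient of variation across libraries was 115%, so that intervals were wide.

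Of the 7 tested genes, 5 had a mean lower in large clones and 2 a mean higher, against 46.8% of all genes with a log2 fold change below 0. Their median log2 fold change, large over small clones, was -0.24, and that of all genes was 0.06. The mean level of Tubb4b was 968 ± 971 CPM in large clones and 1345 ± 1302 CPM in small ones (SD, n = 6 each). Its log2 fold change was -0.47 with a 95% interval from -2.60 to 1.65, and its adjusted p in edgeR was 0.9998. The interval thus held both a lower and a higher level of Tubb4b in large clones. Tuba1b averaged 296 ± 272 and 425 ± 350 CPM, with a log2 fold change of -0.52 and an interval from -2.30 to 1.26. Tuba1a averaged 170 ± 174 and 284 ± 204 CPM, with -0.74 and an interval from -2.29 to 0.81. Every interval of the alpha genes thus held 0, and that of Tuba1c, at -0.24, ran from -1.87 to 1.38.

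For Tubb5 the log2 fold change was -0.16 with an interval from -1.99 to 1.67. Tubb3, at 17.9 ± 28.1 CPM (large) and 5.12 ± 5.75 CPM (small), had a log2 fold change of 1.80 with an interval from -1.75 to 5.35. Tubb6, at 51.3 ± 121 and 5.12 ± 8.57 CPM, had 3.32 with an interval from -0.85 to 7.49. Both of these intervals were wider than those of the other tested tubulin genes, and with mouse as a block the values were 0.56 for Tubb3 and 0.32 for Tubb6. Without mouse 1, 4 or 5 Tubb6 no longer passed the filter on low counts, and Tubb3 did not without mouse 2 or 6. Summing the rows of Tuba1a, Tuba1b and Tuba1c, which removes the uncertain split among them, gave -0.57 with an unadjusted p of 0.418 in edgeR.

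**Figure D4:**
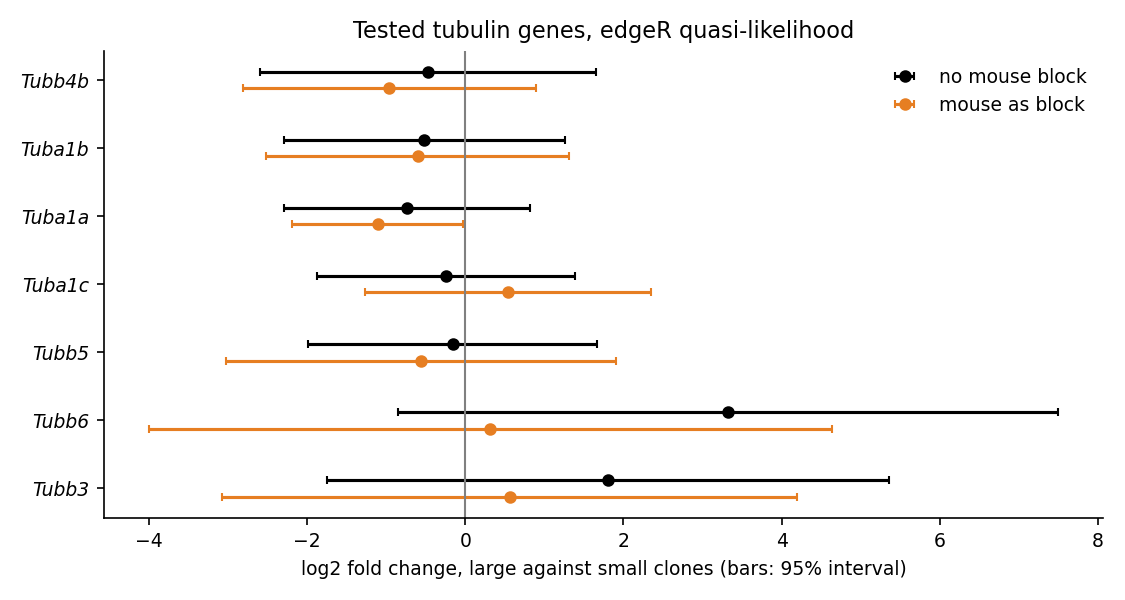
Log2 fold change of large over small clones (horizontal axis) with its 95% interval for each tested tubulin gene, with and without mouse as a block. Without the block every interval includes 0, and with it only that of Tuba1a, from -2.19 to -0.03, does not.

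Both libraries of a number came from 1 mouse, and with mouse as a block Tuba1a had a log2 fold change of -1.11 with a standard error of 0.48. Its interval ran from -2.19 to -0.03 and its unadjusted p was 0.0453. Its adjusted p in edgeR was 1, so it did not pass, and 1.86% of all genes had an unadjusted p under 0.05 in that fit. The within-mouse differences of Tuba1a on the scale of log2(CPM + 1) were -1.26, -1.37, -0.46, -0.79, -0.22 and -2.60 for mice 1 to 6. All 6 were below 0, and the size ranged widely between mice. These values of Tuba1a rest on the uncertain split of reads within the Tuba1 group. The summed rows of that group were not fitted with mouse as a block. Tubb4b was lower in large clones in 5 of 6 mice, as at least 5 mice showed for 13.5% of genes tested, with differences from -2.78 to -0.35 in those mice and 3.70 in mouse 3. In mouse 3 the large-clone library was among the 7 with the lower receptor share and the small-clone library among the other 5, and Tuba1b and Tubb5 also differed there, by 3.95 and 4.94. In mice 1 and 2 the large-clone library was the one with the higher receptor share, and Tubb4b differed by -2.78 and -2.35. In mice 4, 5 and 6, whose libraries were in the same set, it differed by -1.43, -0.35 and -0.87.

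The receptor share moved with these estimates. Within the 7 libraries with the lower share, the log2 fold change of Tubb4b was -0.13 and that of Tuba1b -0.27, and within the other 5 they were 0.0559 and 0.62. Tuba1a stayed below 0 in both sets, at -0.25 and -1.59. Tuba1c was -1.11 in the first and 2.72 in the second, and the latter had an edgeR adjusted p of 0.861. The part of the receptor share in the differences between clone sizes was not tested beyond these fits.

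The summed level of the 10 genes ranged from 1203 to 4860 CPM in the 7 libraries with the lower receptor share and from 219 to 613 CPM in the other 5, and the ratio of the medians was 8.89. Expressed over all counts of a library, the 10 genes took 0.0276% to 0.432%. The sum of 22 ciliated-cell markers, such as Foxj1 and Rsph1, ranged from 794 to 3059 CPM in the 7 and from 143 to 409 CPM in the 5, with a ratio of medians of 5.76. The ratios were 5.75 for epithelial markers and 4.14 for secretory-cell markers such as Ovgp1, so the sums for both epithelial cell types moved in the same direction. Not every single marker did. Mcidas, Dnah9 and Spag16 were highest in the small clones of mouse 6, among the 5, at 135, 56.1 and 4.86 CPM. The other ciliated-cell markers were each highest in a library of the 7. For single tubulin genes the ratio was 18.2 for Tubb4b, 10.5 for Tuba1b and 3.82 for Tuba1a. It was 5.11 for Tuba4a, 3.62 for Tubb5 and 1.07 for Tuba1c. For Tubb3 and Tubb2b it was 0, because their median in the 7 libraries was 0. Tubb2a and Tubb6 had a median of 0 in the 5, which leaves no ratio. Tubb4b divided by the ciliated sum was 0.868 to 1.72 in the 7 and 0.207 to 1.21 in the 5. Divided by the epithelial sum it was 0.161 to 0.391 and 0.0963 to 0.213. Both pairs of ranges overlap, and the contribution of ciliated cells to the level of Tubb4b was not tested.

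**Figure D5:**
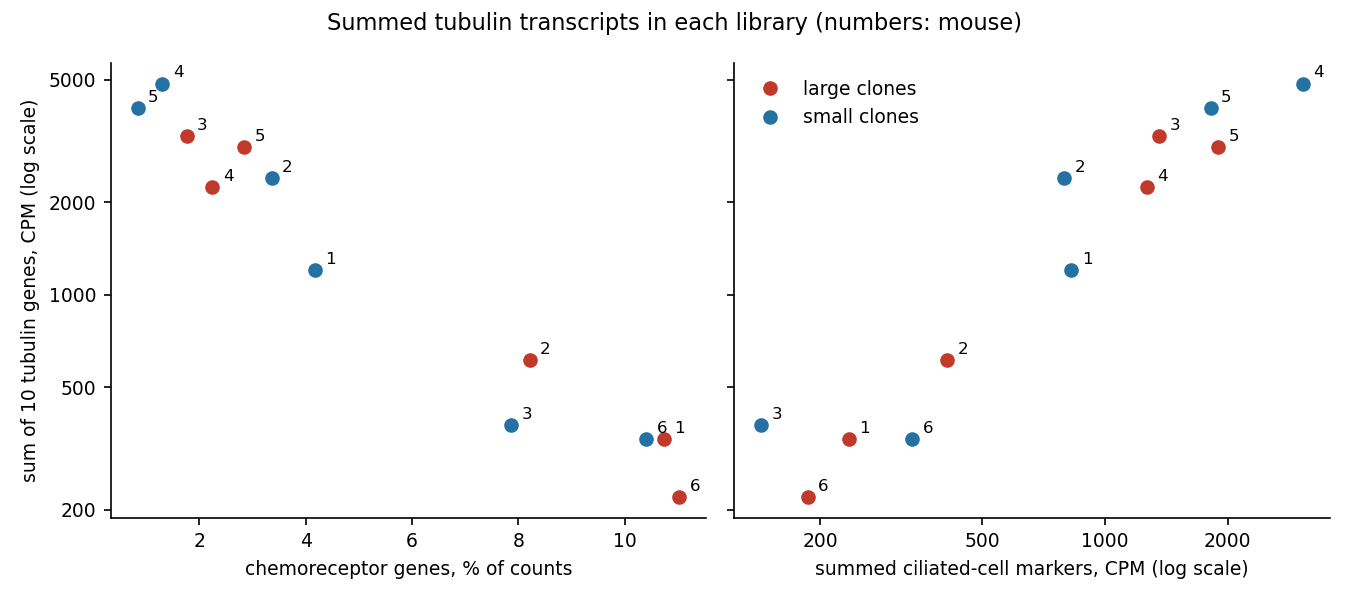
Summed level of the 10 tubulin genes in each library (vertical axes, CPM, log scale) against the chemoreceptor share of counts (left, %) and the summed ciliated-cell markers (right, CPM, log scale), with mouse numbers beside the points. The 5 libraries with a receptor share of 7.87% or more have tubulin sums of at most 613 CPM, and the other 7 have at least 1203 CPM.

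Across the 12 libraries Tuba1b and Tubb4b had a Pearson correlation of 0.94 on log2(CPM + 1), and Tuba1a and Tubb4b one of 0.76. These are descriptions of libraries that share the receptor split. Of 10841 other genes tested, those whose levels followed the summed tubulin genes most closely were Lrpap1 (r = 0.987), Syf2 (0.977), Rsph10b (0.974), Cdhr4 (0.972) and Ctdsp1 (0.972). Rsph10b encodes a radial spoke protein of motile cilia. Cdhr4, a cadherin-related gene, ranged from 354 to 1365 CPM in the 7 libraries and from 10.2 to 66.8 CPM in the 5.

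Genes that act on tubulin were followed as lists chosen with earlier results of these data known. None passed the adjusted or the unadjusted test between clone sizes, which 0% and 2.54% of all genes tested did. Over all genes tested, 46.8% had a log2 fold change below 0, and the median was 0.06. For tubulin folding (prefoldin, the CCT chaperonin and tubulin cofactors), 18 genes were tested, 8 with a mean higher and 10 with a mean lower in large clones, with a median log2 fold change of -0.08. Pfdn5, a prefoldin subunit, averaged 945 ± 980 CPM (large) and 1105 ± 541 CPM (small), and Cct5, a chaperonin subunit, 331 ± 353 and 424 ± 313 CPM. The summed folding genes followed the library sets as the tubulins did, with a ratio of medians of 5.59. Both genes of the mRNA autoregulation list were tested. Ttc5 averaged 35.0 ± 8.91 CPM (large) and 32.6 ± 12.1 CPM (small), while Scaper, which acts with it, averaged 14.2 ± 17.9 and 5.12 ± 5.58 CPM. Ttc5 lay between 14.8 and 50.5 CPM in the 7 libraries and between 29.9 and 43.8 CPM in the 5, so it overlapped between the sets, where Tubb4b did not.

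Among 17 tested genes for enzymes that modify tubulin, 5 had a higher and 12 a lower mean in large clones, and the median log2 fold change was -0.74. For this list and those below, 46.8% of all genes tested were below 0 and their median was 0.06. Ttll3, which adds the first glycine to tubulin tails, averaged 137 ± 142 CPM (large) and 168 ± 201 CPM (small). Agtpbp1, which removes glutamates, averaged 67.2 ± 50.02 and 54.5 ± 31.0 CPM. Of 10 tested genes for the gamma, delta and epsilon tubulins and for nucleation, 8 had a higher and 2 a lower mean in large clones, with a median of 0.20. Tubgcp6, a subunit of the gamma-tubulin ring complex, averaged 170 ± 87.5 and 152 ± 44.2 CPM. Of 8 tested genes for proteins that sequester tubulin or sever microtubules, 5 were higher and 3 lower, with a median of 0.36, and Stmn1, which binds free dimers, averaged 111 ± 74.7 and 157 ± 174 CPM. Among 21 microtubule-binding genes 7 were higher and 14 lower, with a median of -0.38, and Tppp3, a microtubule-bundling protein gene, averaged 162 ± 219 and 296 ± 401 CPM. Of 19 tested ciliated-cell markers 5 were higher and 14 lower in large clones, with a median of -0.61. Of the 5 libraries with the higher receptor share, where the ciliated sum was lower, 3 were of large and 2 of small clones. The part of this imbalance in the counts was not tested. Against the direction of most of the ciliated-cell markers, Sntn, a gene of ciliary tips, was at 50.3 ± 35.0 CPM (large) and 6.96 ± 10.7 CPM (small). Sntn was the 1 ciliated-cell marker with an unadjusted p under 0.05 in edgeR, as had 2.54% of all genes. Dcn, a fibroblast marker, and Kdr, an endothelial marker, were also under 0.05 unadjusted in edgeR, at 0.0488 and 0.0492. The adjusted p of each of these genes in edgeR was 0.9998, so none passed.

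The pseudogene Tubb4b-ps2 was followed because its sequence is close to that of Tubb4b and its counts were not spread over libraries in proportion to it. The processed copy was 95.7% identical to the coding sequence of Tubb4b. Bases 166 to 225 of the coding sequence are shown with the 8 differing bases in capitals.
Tubb4b: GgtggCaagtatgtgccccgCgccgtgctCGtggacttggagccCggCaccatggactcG
Tubb4b-ps2: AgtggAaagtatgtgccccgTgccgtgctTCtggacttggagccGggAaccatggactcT

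In the 5 libraries with the higher receptor share Tubb4b-ps2 had 20.27, 0, 52.23, 92.39 and 123.34 expected counts, for the large clones of mice 1, 2 and 6 and the small clones of mice 3 and 6. These were 3.85%, 0%, 20.3%, 11.4% and 26.0% of the counts of both genes together. In the other 7 libraries it had 0 to 6.04 counts, at most 0.0599% of both, although Tubb4b itself was higher there. Processed pseudogenes as a class also took a larger share of counts in those 5 libraries, as given above.

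The promoter of Tubb4b is shown because Tubb4b had the highest level of the 10 genes. It is RefSeq's sequence of GRCm38.p6, chr2:25224653-25224952 on the minus strand, from 250 bases before to 50 bases after the start, and RefSeq held promoters for 8 of the 10 genes. Capitals mark matches to the 3 motifs that are spelled out after it.
Tubb4b promoter: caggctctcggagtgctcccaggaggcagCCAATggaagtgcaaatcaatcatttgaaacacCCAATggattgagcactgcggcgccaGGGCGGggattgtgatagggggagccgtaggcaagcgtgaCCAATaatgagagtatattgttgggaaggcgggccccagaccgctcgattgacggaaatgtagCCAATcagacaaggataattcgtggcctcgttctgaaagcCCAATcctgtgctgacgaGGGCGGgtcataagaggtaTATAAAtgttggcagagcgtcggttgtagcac

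Searching both strands, it held 5 matches to CCAAT, 2 to GGGCGG and 1 to TATAAA, and none of these overlapped another. Of 32851 promoters of this length, 37.4% held CCAAT at least 1 time, 35.7% GGGCGG and 13.6% TATAAA, and 89 promoters, or 0.271%, held 5 or more CCAAT matches. That threshold of 5 was the count seen in Tubb4b itself. Among the other tubulin promoters, CCAAT matches ran from 0, as in Tuba1b, to 2 in Tubb5, with 1 in Tuba1a. A match describes the letters of this window and not a site that was measured.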

How the data were processed

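RNA from 12 libraries was counted per gene. The authors deposited 1 table of expected counts, made with RSEM and Bowtie2, with GRCm38 named as build, per the submitters' processing notes, which give no versions. Of 35491 genes shared with GENCODE M21 (GRCm38), 2.96% had the same start, so the table's gene coordinates, given above, are of a build it does not name. One row without a symbol held 0.133% of counts and entered as 1 of the genes. Of all entries, 22.7% were not whole, and counts were rounded. They were tested with edgeR 4.0.16 in R 4.3.3 (TMM, filterByExpr, quasi-likelihood test, Benjamini-Hochberg adjustment at 0.05). The filter kept 10848 genes with 97.2% of counts. CPM uses TMM-scaled library sizes.

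Mouse was not a term of the main model. Since both libraries of a number came from 1 mouse, per the labels, mouse as a block was an alternative. Deviations of a mouse's pair of libraries from their group means correlated at -0.019, -0.0071, -0.38, 0.28, 0.52 and 0.64 for mice 1 to 6. DESeq2 1.42.0, other size factors, other filters, unrounded counts, summed near-identical rows, each mouse left out, the receptor-share sets and that share as a covariate were further alternatives. The code was tested on simulated counts.

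Genes in text were the 10 tubulins, the 2 most abundant tested genes of each list and any list gene with an unadjusted p under 0.05, of which the text gives those that a sentence rests on. Nefl, Nefm, Col1a1, Lum, Pdgfra, Col3a1, Tubb4a, Mcidas, Dnah9 and Spag16 were named after their values were seen. The 10 genes and the lists were chosen with earlier results of these data known. Levels per kilobase use the longest GENCODE M21 transcript. Some genes and sequences are not reported here.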

Additional observations from a re-analysis of the deposited data

Results flagged for a closer look

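On log2(CPM + 1), 20 groups of 6 libraries were searched for a library far from the rest of its group, and 2 were found, where chance gives about 1 in 20. The large clones of mouse 4 had 299 CPM of Tubb6, far above the other large-clone libraries. The large clones of mouse 1 had 0.315 CPM of Tubb2a while the other 5 large-clone libraries were at 0, a value below the limit that a count of 0 allows.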

How the results depend on the processing

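The number of genes past an adjusted p of 0.05 was 0 in edgeR, also with the replicate block for mouse and without any 1 mouse (0 to 0). It was 5 in DESeq2 and 42 in DESeq2 with the replicate block, none of them one of the tubulin genes. Of 108 values of the tested tubulin genes under alternatives, 94 kept their direction and 14 reversed. None of the 107 with an adjusted p passed the threshold (0.382 to 1), and Tubb6 had no p in DESeq2. Within the 5 libraries with the higher receptor share the log2 fold change of Tuba1b was 0.62, of Tuba1c 2.72, of Tubb4b 0.0559 and of Tubb5 1.36. With the receptor share as a covariate Tuba1b was 0.20, Tuba1c 0.43, Tubb4b 0.20, Tubb5 0.44 and Tubb3 -1.48. Tubb6, which rested on 1 library, was 4.32 there (interval 1.05 to 7.58) and 3.68 within the 7 libraries (0.09 to 7.26). Within the 5, the interval of Tuba1a ran from -3.12 to -0.07 and that of Tuba1c from 0.79 to 4.65. These intervals did not hold 0, and the lowest adjusted p among them in edgeR was 0.861. With the replicate block Tuba1c was 0.54, both in edgeR and in DESeq2. Leaving out 1 mouse gave -0.50 to 0.50 for Tuba1c (0.50 without mouse 5) and -1.44 to 0.42 for Tubb5 (-1.44 without mouse 3, 0.42 without mouse 4, 0.10 without mouse 5). Tubb4b moved from -1.16 without mouse 3 to -0.08 without mouse 4. The cause of these changes was not tested. In the order of levels per kilobase, 6 of 10 genes kept their place with the mean transcript length, 6 with no length, 5 in the 7 libraries with the lower receptor share and 2 in the other 5. Depth limits Tuba4a, Tubb2a and Tubb2b, which lay near the limit of a count of 0 in many libraries.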
